A study of Homo sapiens with 4 samples.

Results

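The 9p21 locus on the short arm of chromosome 9 was examined for accessible chromatin after 5-azacytidine and without it in BCPAP, a long-established cell line from a human thyroid cancer. Its members are MTAP, CDKN2A and CDKN2B, with the long noncoding transcript CDKN2B-AS1, and they were taken as all peaks overlapping chr9:21780-22130 kb of the hg19 build. Merging overlapping peaks of the 4 lists gave 55 accessible regions there, of 373425 on chromosomes 1 to 22 and X. The groups were 2 libraries of BCPAP cells treated with 5-azacytidine and 2 libraries of untreated BCPAP cells, all of the 1 cell line. 5-Azacytidine is a cytidine analogue that is built into DNA and traps DNA methyltransferases, so that methylation at CpG sites is lowered as cells divide. In ATAC-seq a transposase cuts exposed DNA, and accessible sites stand out as peaks of reads. The labels give no dose or duration, and nothing in them tells separate cultures from repeat preparations, so p-values measure only the spread between these libraries, which could be technical.

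CDKN2A and CDKN2B are tumour suppressor genes. CDKN2A makes p16INK4a, which blocks the cyclin D-dependent kinases CDK4 and CDK6 and so keeps RB1 active, and, from another start and reading frame, ARF, which binds MDM2 and stabilises p53. CDKN2B makes p15INK4b, another inhibitor of CDK4 and CDK6, and CDKN2B-AS1, also named ANRIL, is transcribed in the opposite direction from beside the ARF start. MTAP, an enzyme that salvages methionine and adenine from methylthioadenosine, is often lost together with its neighbours when 9p21 is deleted in cancer. The p16INK4a start is also a known site of promoter methylation in many tumours. The lists were given on hg19, while the gene table at hand was on GRCh38.p14, so it served only for the order of the genes, which was MTAP, CDKN2A, CDKN2B-AS1 and CDKN2B going up the chromosome. The regions below are placed on genes from general knowledge of this locus on hg19, as background and not as a measurement.

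Methylation was not measured in these cells, but the starts of the members differ in how many CpG sites they hold. The 250 bases before each of 4 starts are shown for that reason, taken from RefSeq on GRCh38.p14, 5′ to 3′ on the gene's own strand with each CpG in capitals. They lie at chr9:21802386-21802635 (plus strand) for MTAP, chr9:21974858-21975107 (minus) for the p16INK4a start of CDKN2A, chr9:21995325-21995574 (minus) for its ARF start and chr9:22009306-22009555 (minus) for CDKN2B. These positions are of another build than the peaks and are not to be read against them.
MTAP: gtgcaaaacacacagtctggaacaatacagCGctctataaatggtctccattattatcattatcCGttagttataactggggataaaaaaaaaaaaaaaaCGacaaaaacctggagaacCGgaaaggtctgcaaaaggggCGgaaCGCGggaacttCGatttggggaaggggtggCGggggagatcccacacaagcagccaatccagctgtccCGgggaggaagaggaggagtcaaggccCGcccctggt
CDKN2A p16INK4a: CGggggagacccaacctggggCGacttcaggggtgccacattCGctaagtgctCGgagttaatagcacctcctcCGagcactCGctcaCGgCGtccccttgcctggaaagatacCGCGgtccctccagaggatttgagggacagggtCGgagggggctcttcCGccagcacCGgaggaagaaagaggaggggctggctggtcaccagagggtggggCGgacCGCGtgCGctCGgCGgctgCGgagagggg
CDKN2A ARF: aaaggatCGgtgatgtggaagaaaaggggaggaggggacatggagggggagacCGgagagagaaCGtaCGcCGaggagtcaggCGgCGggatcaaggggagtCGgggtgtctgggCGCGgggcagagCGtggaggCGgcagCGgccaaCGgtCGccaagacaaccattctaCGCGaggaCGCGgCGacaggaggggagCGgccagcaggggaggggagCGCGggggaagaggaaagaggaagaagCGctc
CDKN2B: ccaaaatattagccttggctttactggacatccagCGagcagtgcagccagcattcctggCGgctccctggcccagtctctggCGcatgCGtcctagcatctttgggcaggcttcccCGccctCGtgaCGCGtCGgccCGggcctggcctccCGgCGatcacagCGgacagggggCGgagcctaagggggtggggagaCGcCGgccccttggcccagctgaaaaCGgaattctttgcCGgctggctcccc

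The MTAP start held 11 CpG sites in these 250 bases, which equals the median of 35116 such RefSeq windows. The p16INK4a start held 20, the ARF start 24 and the CDKN2B start 18. At least as many were found in 32.4%, 23.7% and 36.8% of all windows for these 3 starts. CDKN2B-AS1, whose window was searched but is not shown, held 31, a number reached by 10.9% of windows. The GC box GGGCGG was counted on both strands as GGGCGG or CCGCCC, and each match contains 1 CpG. It occurred 2 times before MTAP, CDKN2B and CDKN2B-AS1, 1 time before the p16INK4a start and 0 times before the ARF start, and 42.6% of all windows held it.

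The locus was accessible in every library. The window held 36 and 50 peaks in the 5-azacytidine lists (replicates 1 and 2), against 46 and 40 peaks in the untreated lists. The 5-azacytidine libraries were thus both the lowest and the highest, and the untreated libraries lay between them. The mean was 43 ± 9.90 peaks after 5-azacytidine and 43 ± 4.24 without it (SD, n = 2 each), and an exact permutation test (two-sided, as throughout) returned p = 1. With 2 libraries against 2 the smallest p the test allows is 0.333, so no difference in these data could pass a threshold. The whole lists held 259572 and 245142 peaks in 5-azacytidine replicates 1 and 2 and 221110 and 223345 in the untreated libraries, and the number of reads is unknown.

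Peaks were denser at 9p21 than in the rest of chr9:20000-24000 kb taken as a whole. Per 100 kb the window held 10.3 and 14.3 peaks in the 5-azacytidine libraries, against 13.1 and 11.4 in the untreated libraries. The rest of chr9:20000-24000 kb, the local reference, held 3.75 and 4.60 peaks per 100 kb after 5-azacytidine and 4.68 and 4.27 without it. The window was therefore 2.67 to 3.10 times as dense as that rest taken as a whole in all 4 lists. Its share of the local peaks was 20.8% and 22.9% in the 5-azacytidine libraries, against 21.2% and 20.4% in the untreated libraries. The difference of the means was 1.07 percentage points, and the exact permutation test gave p = 0.667. Among 7923 tiles of 350 kb with at least 1 region over all chromosomes, the median held 35 regions and 31.1% held at least 55, so the window's density was not unusual for the genome.

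No 50 kb bin that touches the window was empty in any list, whereas 34 to 37 of the 80 bins of the local reference were. The window still held a stretch of 59447 bp without a peak in any list, from 21928916 to 21988362. That stretch is longer than a bin but crosses a bin edge, so it left no bin empty. Below the window, some bins held more peaks than any bin touching it. The bin 1550 kb from the low end of the local reference held 14 and 18 peaks after 5-azacytidine and 16 and 15 without it. The fullest bin touching the window, at 2100 kb, held 10 and 12 peaks after 5-azacytidine and 12 and 11 without it. The longest empty stretches nearby lay above the window, from 22470354 to 23088871 (618518 bp) and from 23162165 to 23825622 (663458 bp). Both lie in the stretch beyond DMRTA1, the next protein-coding gene above CDKN2B in the gene order. Peak lists do not measure copy number, so loss of some copies and lower accessibility cannot be told apart here.

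**Figure D1:**
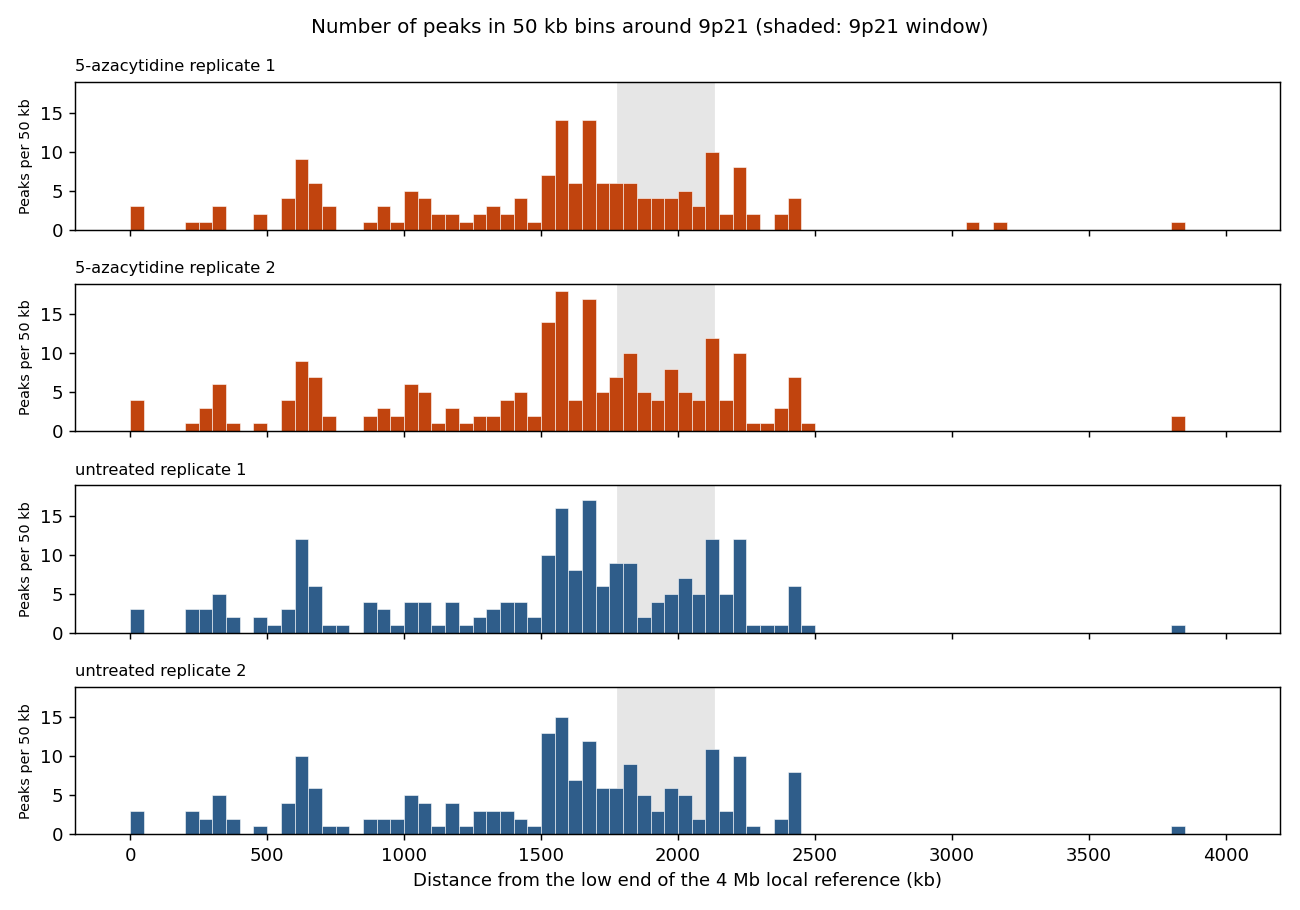
Number of peaks in 50 kb bins along the 4 Mb around 9p21, with 1 panel per library, 5-azacytidine above untreated, and the distance from the low end of the 4 Mb in kb. The shaded 350 kb window holds peaks in every bin of every library, while 34 to 37 of the 80 bins are empty, most of them at the right. A stretch of 59447 bp without a peak lies within the window but crosses a bin edge, so it leaves no bin empty.

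A minority of the regions of the locus was found in every library. All 4 lists held a peak in 21 of the 55 regions (38.2%), against 28.2% of all regions of the genome and 35.7% of the 221 regions in the rest of the local reference. No test was made of these shares. Another 8 regions were found in 3 lists, 11 in 2 lists and 15 in 1 list. Of the 8, 4 lacked a peak in 5-azacytidine replicate 1 alone and 4 in untreated replicate 2 alone. The summit of the highest peak fell within 100 bp over the 4 libraries in 14 of the 21 shared regions, and the median range was 57 bp. At the edges of the window, the first region inside began at 21782145 and had a summit coverage of 7 in 5-azacytidine replicate 2 and 10 in untreated replicate 1. The last before it ended at 21778258 and was in all 4 lists, with 11 and 11 reads after 5-azacytidine and 16 and 7 without it. The last region inside ran from 22129976 to 22130475 and was in untreated replicate 1 alone, with 7 reads. The first after it began at 22136727, with 7 reads in 5-azacytidine replicate 1 and 6 in untreated replicate 2.

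Summit coverage, the number of reads stacked at the top of a peak, was recovered from the authors' fold enrichment and was 4 or more for every listed peak. In the genome's 105414 regions of all 4 lists its median was 11 and 16 in the 5-azacytidine libraries and 23 and 18 in the untreated libraries. Raw coverage after 5-azacytidine is therefore lower across the genome, and each value was also divided by the library's own median to give a relative coverage. The part that this library-wide difference plays in the raw values at 9p21 was not tested. Over the 21 shared regions of the locus the median raw coverage was 10 and 16 in the 5-azacytidine libraries and 23 and 21 in the untreated libraries.

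**Figure D2:**
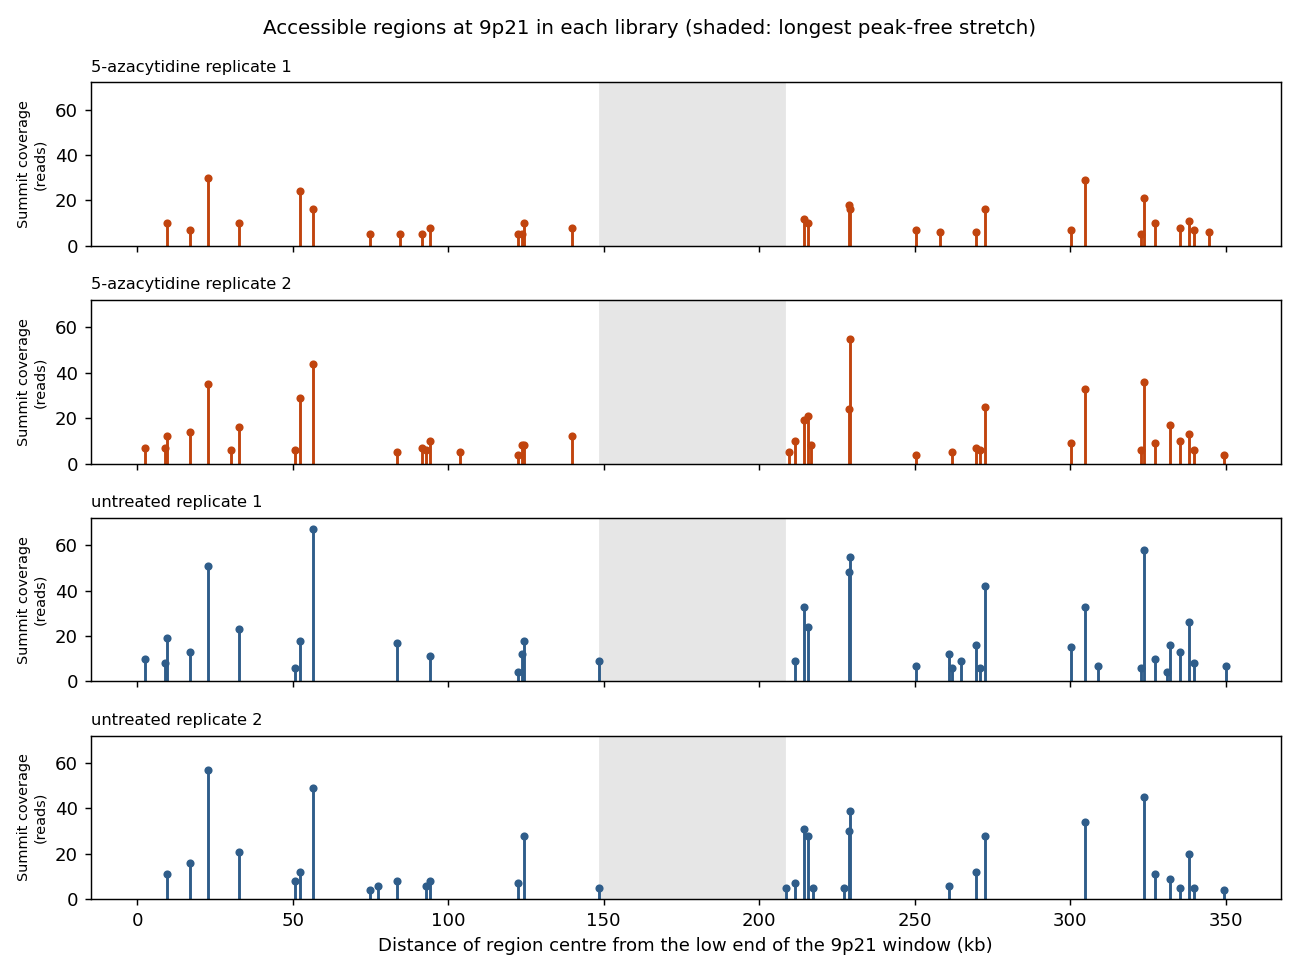
Summit coverage in reads of each accessible region at 9p21, with 1 panel per library, 5-azacytidine above untreated, against the distance of the region's centre from the low end of the window in kb. The shaded stretch of 59447 bp holds no peak in any list, and every panel has peaks on both sides of it.

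The MTAP start was among the strongest sites of the locus. The region from 21801992 to 21803747, 1756 bp wide, held 2 or 3 peaks per list and had a coverage of 30 and 35 reads in 5-azacytidine replicates 1 and 2, against 51 and 57 reads in untreated replicates 1 and 2. Both 5-azacytidine libraries were lower than both untreated libraries in raw reads. Relative to the library medians it stood at 2.73 and 2.19 after 5-azacytidine and 2.22 and 3.17 without it, so that the groups overlapped. The difference in mean log2 relative coverage was −0.12 (exact permutation p = 0.667). In each list this region ranked within the strongest 4.08% to 9.70% of peaks by coverage.

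Further sites lay within the span of MTAP. The region from 21835782 to 21837012 had 16 and 44 reads after 5-azacytidine, against 67 and 49 reads without it. Its low value came from 5-azacytidine replicate 1, and in relative coverage the groups overlapped, with 1.45 and 2.75 after 5-azacytidine and 2.91 and 2.72 without it. The value of 67 was the highest coverage of the whole window in any library.

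A neighbouring site went the other way. The region from 21831986 to 21832501, 516 bp wide and also within MTAP, had 24 and 29 reads in the 5-azacytidine libraries, against 18 and 12 reads in the untreated libraries, with summits within 16 bp of each other. Mean coverage was 26.5 ± 3.54 reads after 5-azacytidine and 15 ± 4.24 reads without it (SD, n = 2 each). It was the only shared region of the locus in which both 5-azacytidine libraries exceeded both untreated libraries in raw reads, which was the case in 4.39% of shared regions of the genome. Relative coverage was 2.18 and 1.81 after 5-azacytidine and 0.783 and 0.667 without it, a difference of 1.46 on the log2 scale. Of the shared regions of the genome, 1.35% differed by at least as much in that direction. The exact permutation test gave p = 0.333, the smallest value possible, and the region is singled out after its values were seen.

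No peak was listed at the p16INK4a start of CDKN2A in any library. The longest peak-free stretch of the window, common to all 4 lists, ran from 21928916 to 21988362, which is 59447 bp and includes that start on hg19. Loss of this stretch on some or all copies and low accessibility cannot be told apart here, since peak lists do not measure copy number. In single lists the stretch was 73730 and 69453 bp long in the 5-azacytidine libraries and 62361 and 59447 bp in the untreated libraries. After 5-azacytidine the nearest peaks above it began at 21993790 and 21989440 in replicates 1 and 2. Of 373065 peak-free stretches in the genome 1.34% were at least as long, with a median length of 1819 bp, and 8 of 275 were within chr9:20000-24000 kb. Peak numbers run consecutively in the lists except for gaps. Within the list's own stretch, 1 number was missing in 5-azacytidine replicate 1 and 1 in untreated replicate 1. A peak may have been called and removed somewhere between the flanking peaks, and its position is unknown. In the other 2 lists no number was missing.

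The ARF start of CDKN2A and the start of CDKN2B-AS1, which lie close together on opposite strands, were accessible in all libraries. The region from 21993790 to 21995043 had 12 and 19 reads in the 5-azacytidine libraries, against 33 and 31 reads in the untreated libraries. It was lower after 5-azacytidine in relative coverage as well, at 1.09 and 1.19 against 1.43 and 1.72 without it. The log2 difference was −0.47 (exact permutation p = 0.333), and 15.8% of shared regions of the genome had a difference as low or lower. The adjoining region from 21995136 to 21996198 had 10 and 21 reads after 5-azacytidine and 24 and 28 reads without it, and in relative coverage the groups overlapped.

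The CDKN2B start was marked by a close pair of regions. The one from 22008499 to 22009014 had 18 and 24 reads in the 5-azacytidine libraries, against 48 and 30 reads in the untreated libraries, and its relative coverage of 1.64 and 1.5 lay below 2.09 and 1.67 without treatment. The log2 difference was −0.25 (exact permutation p = 0.333), and 28.2% of shared regions of the genome had a difference as low or lower. The one from 22009023 to 22009569 had 16 and 55 reads after 5-azacytidine and 55 and 39 reads without it. Here the 5-azacytidine libraries were the lowest and, with untreated replicate 1, the highest, and the log2 difference in relative coverage was −0.03.

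The starts were also set side by side within each list. In all 4 lists the highest region at the ARF and CDKN2B-AS1 starts had fewer reads than MTAP, with 12 against 30 and 21 against 35 in the 5-azacytidine libraries and 33 against 51 and 31 against 57 in the untreated libraries. It also had fewer than the higher region of CDKN2B in all 4 lists, with 18 and 55 reads after 5-azacytidine and 55 and 39 without it. MTAP and CDKN2B changed places between libraries: MTAP was higher in 5-azacytidine replicate 1 and untreated replicate 2, and CDKN2B in the other 2. The 4 regions at the CDKN2A, CDKN2B-AS1 and CDKN2B starts had differences in mean log2 relative coverage of −0.47 to −0.03 after 5-azacytidine. Both 5-azacytidine libraries were below both untreated libraries in 2 of the 4, against 22.2% of shared regions of the genome, and the 4 were grouped after their values were seen.

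Beyond CDKN2B, along the rest of CDKN2B-AS1 and just past it, 22 regions were found, of which 8 were in all 4 lists. The region from 22103183 to 22104065, the tallest of them in 3 of the 4 lists, had 21 and 36 reads in the 5-azacytidine libraries, against 58 and 45 reads in the untreated libraries. Its relative coverage was 1.91 and 2.25 after 5-azacytidine and 2.52 and 2.50 without it, a log2 difference of −0.28 (exact permutation p = 0.333). Of the shared regions of the genome, 26.5% had a difference as low or lower. The region from 22084529 to 22085052, the tallest in 5-azacytidine replicate 1, stood close in raw reads, with 29 and 33 reads after 5-azacytidine and 33 and 34 reads without it. Relative to the library medians it stood higher after 5-azacytidine, at 2.64 and 2.06, against 1.43 and 1.89 without it, a log2 difference of 0.50. Its sign thus depends on the scaling. A difference in relative coverage as high or higher was found in 23.3% of shared regions of the genome. The region from 22052312 to 22052979 had 16 and 25 reads in the 5-azacytidine libraries, against 42 and 28 reads in the untreated libraries, and in relative coverage the groups overlapped.

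**Figure D3:**
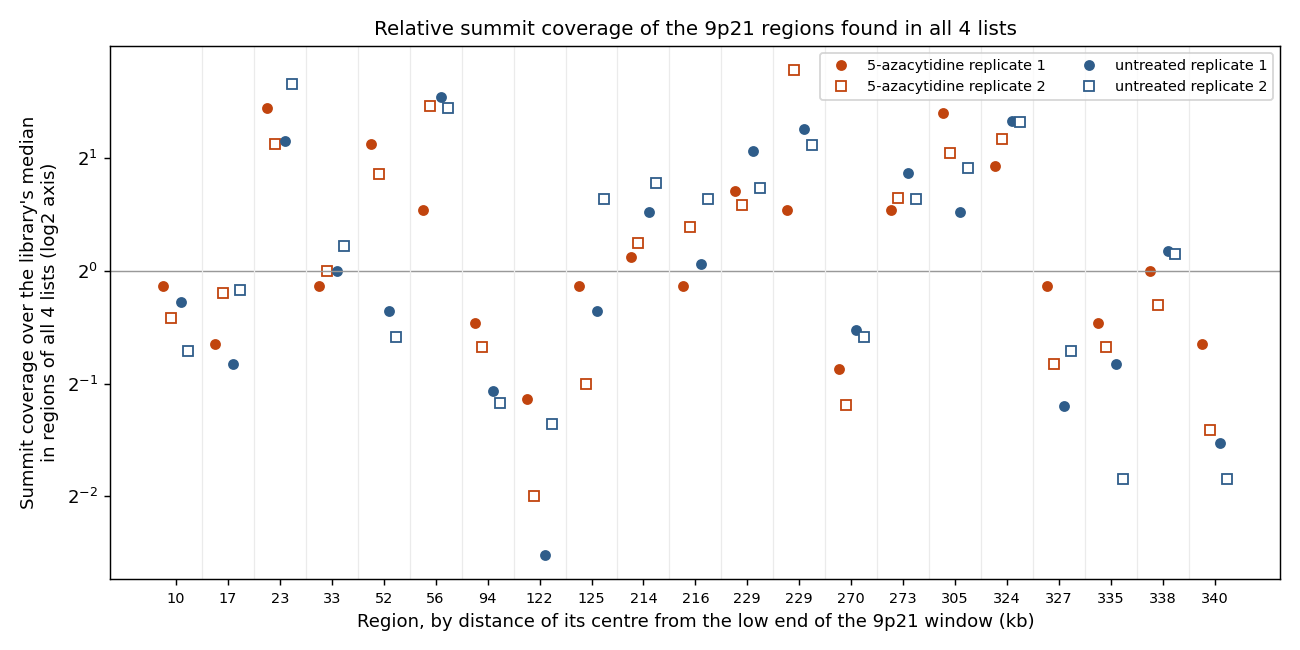
Summit coverage divided by the library's median, on a log2 axis, for the 21 regions of 9p21 found in all 4 lists, in order of their distance from the low end of the window in kb. Each point is 1 library, 5-azacytidine in orange and left of untreated in blue. The region at 52 kb is the one in which both 5-azacytidine points lie farthest above both untreated points.

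Over all 21 shared regions, the shares in which relative coverage was lower or higher after 5-azacytidine were close to those of the genome. Both 5-azacytidine libraries were below both untreated libraries in 5 regions (23.8%, against 22.2% of shared regions of the genome) and above them in 5 regions (23.8%, against 27.2%), and the groups overlapped in 11. In raw reads they were below in 11 regions (52.4%, against 47.6%) and above in 1 (4.76%, against 4.39%). The median log2 difference in relative coverage was −0.12 at 9p21, with a range from −0.71 to 1.46, and 0.06 over all shared regions. The low end was the region from 21904269 to 21904805, with 10 and 8 reads after 5-azacytidine and 18 and 28 without it. In relative coverage its groups overlapped, and 6.68% of shared regions of the genome had a difference as low or lower. The mean log2 relative coverage per library was 0.12 and 0.03 after 5-azacytidine and −0.05 and 0.06 without it, a difference of 0.0653 (exact permutation p = 0.667). The SD of these library means was 0.0616 after 5-azacytidine and 0.0759 without it (n = 2 each), so the difference was about as large as the spread between replicates. For single regions, the median gap between the 2 libraries of a group was 0.32 in both groups on the log2 scale.

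Regions that appeared or disappeared were few. A gained region, with a peak in both 5-azacytidine lists and in neither untreated list, was found 2 times among the 55 (3.64%), against 4.21% of all regions. A lost region, the reverse, was also found 2 times (3.64%), against 3.35% of all regions. Both shares are near those of the genome. Both gained regions lay above the tall sites of MTAP and below the peak-free stretch. The one from 21919487 to 21920059 had 8 and 12 reads in the 5-azacytidine libraries. In both untreated lists a peak number was missing somewhere between the nearest peaks on either side of it. The one from 21871209 to 21871722 had 5 and 7 reads, with no number missing. The lost region from 21928329 to 21928915 had 9 and 5 reads in the untreated libraries and borders the peak-free stretch. In 5-azacytidine replicate 1 it falls within that list's own stretch of 73730 bp, whose 1 missing number cannot be placed at this region. The lost region from 22040716 to 22041234, within CDKN2B-AS1, had 12 and 6 reads in the untreated libraries, with no number missing in the 5-azacytidine lists. Of 75 absences of a region from a list, 13 had a missing number between the list's nearest peaks on either side. These missing numbers cannot be placed at a region, and neighbouring absences can share 1 of them.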

How the data were processed

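ATAC-seq peak lists of 4 libraries were used, 1 per library. Per the submitters' processing notes, the tools were Trimmomatic, Bowtie2, Picard and MACS2 on hg19; their versions and settings, and any correction of read ends for the transposase, were not given in the sources used here. The deposited intervals were all 500 bp wide on the chromosomes used. The deposited score, which sums to 1000000 in every list, was not used. The deposited fold enrichment and −log10 p and q are the peak's own values. In each deposited list the folds were whole multiples (tolerance 0.02) of 1 step, which gave the background coverage (0.875 to 0.913) and, from (coverage + 1) times the step, each summit coverage. A Poisson distribution with that mean gave at least 99.8% of the deposited p-values, within 1%.

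Peaks sharing at least 1 bp were merged, and presence, coverage, density and stretches without a peak were compared by exact permutation over the 6 assignments of the libraries or by description. Merging and coverage were tested on simulated data. Every region in the window is accounted for. Those named include the starts, the highest, the gained and lost ones, and the ends of the range of log2 differences. Members, window and related lists were chosen with earlier results of these data known, and regions were singled out after their values were seen. The planned look at start sites of related cell-cycle genes was not run, since hg19 gene positions were not used here, and for the same reason no marker genes of the cell line were looked at. Alternatives were equal list lengths, a −log10 q of at least 5, merging within 150 bp, an overlap of 50%, chromosome 9 as reference, leaving out single libraries, and the replicate block. Values were computed with numpy 2.4.6 and pandas 2.3.3 under Python 3.11.15, checks of p-values with scipy 1.17.1 and figures with matplotlib 3.10.9.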

Additional observations from a re-analysis of the deposited data

How the results depend on the processing

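No difference between the groups could pass a threshold under any alternative, so what follows concerns directions and sizes. The difference in peak number in the window (5-azacytidine minus untreated) was 0, and it was −2 with lists of equal length, −7 at a −log10 q of at least 5, and −7 to 7 when each library was left out. At that q the window held 18 and 27 peaks after 5-azacytidine and 35 and 24 without it, so the groups overlapped. The whole lists then held 94249 and 128689 peaks after 5-azacytidine and 137646 and 122154 without it. The 9p21 share of local peaks was higher after 5-azacytidine by 1.07 percentage points. It turned to −0.0356 with all of chromosome 9 as reference, kept its sign under equal list lengths (2.37) and the stricter q (0.988), and was 0.00609 to 2.13 without single libraries. Summit coverage differed by 0.0653 on the log2 scale. It ranged from −0.112 to 0.0471 without single libraries, and it turned negative without 5-azacytidine replicate 2 (−0.0418) and without untreated replicate 1 (−0.112). Gained regions numbered 2, and 0 were found at the stricter q. Lost regions numbered 2, and 4 with equal list lengths or an overlap of 50%. Leaving out a library gave 2 to 6 gained and 2 to 6 lost regions, since each then has fewer conditions to meet. The peak-free stretch was 59447 to 60611 bp when a library was left out and 62361 bp at the stricter q, against 73730 and 69453 bp in the 5-azacytidine lists on their own. With the replicate block, the paired differences were 0, 1.07 and 0.0653, each with an exact sign-flip p of 1. The labels do not tie equal numbers to a batch, and over 105414 regions the deviations of same-numbered libraries had a correlation of −0.0516. The lists hold no peak under a coverage of 4, so a weaker site would not be detectable.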
